A study of Mus musculus with 4 samples.

Results

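Peaks of ATF4 chromatin pull-down were described at 10 genes that encode the core transcription factors of heart muscle, out of 21900 protein-coding genes. The 10 genes were taken by name and the rule uses no measured value, but they were proposed with earlier results of these data known, so their counts beside all genes are no independent evidence. They are Gata4 and Gata6 (GATA zinc finger factors), Nkx2-5 (a homeodomain factor), Tbx5 and Tbx20 (T-box factors), Hand1 and Hand2 (basic helix-loop-helix factors), Srf (serum response factor), Myocd (myocardin, a coactivator of serum response factor) and Hopx (a homeodomain-only protein). A peak was counted as a gene-end peak where it lay within 1 kb of either end of the mm10 gene model, and as a distal peak where it lay elsewhere in the model or within 50 kb of it. The series-wide peak list held 41639 peaks, of which 90 met this rule; the lists of the 2 pull-down samples held 178 of 78746 (replicate 1) and 206 of 88812 (replicate 2). No peak was counted for more than 1 of the 10 genes.

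The pull-down samples came from heart ventricle of mice aged 4 weeks, and chromatin was captured on streptavidin beads. Their antibody field reads AAV without explanation, and whether the captured ATF4 was the heart's own or a tagged form is not spelled out; strain, genotype and sex are not given in the sources used here. A further 2 samples are input chromatin of the same tissue and age, and their values were not analysed here. The pull-down samples are titled ATF4-bio1 and ATF4-bio2, and the labels do not say whether bio stands for a biological replicate or for biotin. Whether they came from separate animals is thus not settled, and an SD between them may be technical. An SD of 2 values can also lie below the counting error of a fold, which was not computed. With 1 group of 2 samples, no difference between conditions could be tested, and all results below are descriptions. The label as ventricle was compared with marker genes, although peaks do not measure expression. Gene-end peaks lay at 6 of 6 cardiomyocyte markers (Myh6, Tnnt2, Tnni3, Actn2, Ryr2 and Ttn), 1 of 4 endothelial (Tek), 1 of 4 fibroblast (Dcn), 2 of 3 smooth muscle (Myh11 and Acta2), 1 of 3 immune (Cd68) and 0 of 3 neuronal markers, against 34.9% of all protein-coding genes. With at most 6 genes per cell type, these counts cannot settle which cells gave the peaks. The endothelial, fibroblast and immune counts are also near that share. The smooth muscle and neuronal counts rest on only 3 genes each.

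ATF4 is a basic leucine zipper factor that is translated when the integrated stress response is active, and it binds DNA mostly as a dimer with C/EBP family and related proteins. The core cardiac factors act on one another's genes and on genes of the contractile apparatus: GATA4, NKX2-5 and TBX5 bind together at heart enhancers, HAND1 and HAND2 shape the ventricles, and serum response factor with myocardin switches on muscle genes through the CArG box. HOPX carries a homeodomain that does not bind DNA and holds back serum response factor.

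Promoter sequences were available from RefSeq (GRCm38.p6) for 5 of the 10 genes, in 6 entries that run from 250 bases before to 50 bases after a transcription start. They are shown because a series-wide peak lay within 1 kb of such a start at 4 of these 5 genes, against 35.4% of the 17492 protein-coding genes with an entry. At those 4 the peak covered the whole of the printed window. The Nkx2-5 window is shown because it held no series-wide peak. Capitals mark the motifs that are named below the sequences, on either strand.

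Srf (chr17:46556113-46556412, minus strand): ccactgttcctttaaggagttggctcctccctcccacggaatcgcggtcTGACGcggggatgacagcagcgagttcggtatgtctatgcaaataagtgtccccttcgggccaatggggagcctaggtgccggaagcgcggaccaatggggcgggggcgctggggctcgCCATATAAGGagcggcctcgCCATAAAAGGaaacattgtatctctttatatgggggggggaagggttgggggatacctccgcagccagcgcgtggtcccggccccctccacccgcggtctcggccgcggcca
Hand2 (chr8:57320733-57321032, plus strand): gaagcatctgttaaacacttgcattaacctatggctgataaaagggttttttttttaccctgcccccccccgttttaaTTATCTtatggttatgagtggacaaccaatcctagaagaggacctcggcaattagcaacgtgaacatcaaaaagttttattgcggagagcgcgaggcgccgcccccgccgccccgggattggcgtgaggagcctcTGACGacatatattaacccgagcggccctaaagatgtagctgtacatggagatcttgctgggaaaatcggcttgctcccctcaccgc
Tbx20 (chr9:24774254-24774553, minus strand): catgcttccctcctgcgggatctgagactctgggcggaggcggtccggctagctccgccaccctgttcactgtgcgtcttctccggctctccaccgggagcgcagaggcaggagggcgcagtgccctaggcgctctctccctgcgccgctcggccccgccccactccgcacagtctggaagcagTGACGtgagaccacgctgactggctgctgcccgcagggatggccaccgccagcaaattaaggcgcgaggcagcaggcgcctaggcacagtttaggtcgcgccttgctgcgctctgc
Hopx, upstream start (chr5:77115074-77115373, minus strand): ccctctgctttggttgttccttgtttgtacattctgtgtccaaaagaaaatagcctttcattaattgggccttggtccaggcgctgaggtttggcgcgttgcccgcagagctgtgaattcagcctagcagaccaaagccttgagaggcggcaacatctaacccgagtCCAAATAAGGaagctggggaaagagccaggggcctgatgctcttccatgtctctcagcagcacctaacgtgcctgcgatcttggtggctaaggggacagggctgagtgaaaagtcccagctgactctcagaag
Nkx2-5 (chr17:26841516-26841815, minus strand): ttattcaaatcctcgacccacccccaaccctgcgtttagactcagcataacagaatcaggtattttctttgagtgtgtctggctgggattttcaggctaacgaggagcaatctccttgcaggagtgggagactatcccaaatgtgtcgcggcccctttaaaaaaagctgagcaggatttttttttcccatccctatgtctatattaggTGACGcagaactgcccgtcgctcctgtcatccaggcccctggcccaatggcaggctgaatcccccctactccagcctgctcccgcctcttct

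At Srf the peak sat on the start itself. Its summit in replicate 1 was the start base (0 bp) and its summit in replicate 2 lay 4 bp upstream. At Tbx20 the summits lay 24 bp downstream of the start in replicate 1 and 12 bp upstream in replicate 2. At Hand2 they lay 136 bp and 196 bp upstream, and at Hopx 152 bp and 164 bp upstream. The second Hopx start, inside the gene model, had no series-wide peak within 1 kb.

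The ATF4 elements TGATGNAA (the C/EBP-ATF composite), TGACGTCA and TGACGTAA (forms of the cAMP response element), searched on both strands, were in none of the 6 windows. Over all 32851 promoter entries they were found in 3.97%, 1.79% and 0.499%. Of the protein-coding entries with a series-wide peak within 1 kb, 2.38%, 3.87% and 1.11% held them. AGATAA, which the factors made from Gata4 and Gata6 bind, was found in 1 window, that of Hand2, and in 11.2% of all entries. TGACG, the core of the cAMP response element, was searched after the sequences were seen and overlaps the longer cAMP response elements. It was in 4 of the 6 windows (Srf, Hand2, Tbx20 and Nkx2-5), against 20.8% of all entries. Of the windows with a peak, those of Srf, Hand2 and Tbx20 held it and that of Hopx did not. Among the 7314 protein-coding entries with a series-wide peak within 1 kb, 35.6% held it. The CArG box, also added after the sequences were seen, occurred at 2 places in the Srf window and 1 in the Hopx window, both genes tied to serum response factor activity, against 1.63% of all entries. Of the protein-coding entries with a peak, 1.39% held a CArG box. The Nkx2-5 window held TGACG and no peak, and the Hopx window held a peak and no TGACG. These matches describe letters in a window of 300 bases and say nothing of the rest of the peaks.

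Gene-end peaks were found at 7 of the 10 genes in the series-wide list, against 34.9% of all protein-coding genes. The strength of a peak is given as fold enrichment over a background that was constant within each sample, which is not a ratio to input. The series-wide fold is the authors' own value per peak and equals the higher of the replicate folds at each of the 90 peaks; folds per replicate were read from the authors' peak values. The GATA genes had the strongest gene-end peaks, the other 5 were weaker, and Tbx5, Hand1 and Srf had none. Over the 7 genes the median of the highest series-wide fold at a gene end was 16.5, against 13.3 over all 7644 genes with such a peak.

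Gata4, which is needed for growth and survival of heart muscle cells, had a gene-end peak at chromosome 14, 63271014 to 63272181, with 41.5 fold in replicate 1 and 45.7 fold in replicate 2 (43.6 ± 2.94, SD, n = 2). Its summit lay 19 bp beyond the upper end of a model built from 2 curated and 2 predicted transcripts. Gata6, which shares many tasks with Gata4 in the heart, had 41.5 fold in replicate 1 and 41.7 in replicate 2 (41.6 ± 0.116, SD, n = 2) at chromosome 18, 11050986 to 11054186. The GATA genes were thus close to each other at their ends, within the spread of Gata4 between the samples. The Gata6 peak was 3201 bp wide, the widest of the 90, and spanned the lower end of the model, and an end of the noncoding gene Gata6os lay within 1 kb of its summit. The strongest summits of the replicates lay 1498 bp apart within it, on either side of that gene end.

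Myocd followed, with 23.0 fold in replicate 1 and 19.1 in replicate 2 (21 ± 2.79, SD, n = 2) at chromosome 11, 65269207 to 65270463, and summits 40 bp and 25 bp from the upper end of its model. Hand2, which is required for the right ventricle, had 16.5 and 12.9 fold (14.7 ± 2.58, SD, n = 2) at chromosome 8, 57320243 to 57321114. An end of Hand2os1, a noncoding gene that is transcribed away from Hand2 and is known to affect it, also lay within 1 kb of the summit. Hopx had 13.5 and 9.75 fold (11.6 ± 2.65, SD, n = 2) at chromosome 5, 77114839 to 77115704. Tbx20, which keeps adult heart muscle working, had 10 and 12.0 fold (11.0 ± 1.39, SD, n = 2) at chromosome 9, 24773741 to 24774764. Nkx2-5 had the weakest gene-end peak of the 7, with 8.0 fold in replicate 1 and 9.75 in replicate 2 (8.88 ± 1.24, SD, n = 2) at chromosome 17, 26844189 to 26844812. In this order the replicate values overlapped between Hand2 and Hopx, between Hopx and Tbx20, but not between Gata6 and Myocd, Myocd and Hand2, or Tbx20 and Nkx2-5. The nearest values of Tbx20 (10) and Nkx2-5 (9.75) were close. With 2 values per gene the order was not tested.

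The gene end of the model was not the transcription start in every case. At Nkx2-5 the promoter table puts the start inside the model, and the gene-end peak lay 2855 bp upstream of that start, at the end of the model. At Srf the start also lies inside the model, 2105 bp from its upper end, so the peak on the start was counted as distal; it had 16 and 14.2 fold (15.1 ± 1.28, SD, n = 2). With starts of the promoter table counted as gene ends too, a choice made after the tables were seen, 8 of the 10 genes had a peak, against 37.4% of all genes. The models of Gata4, Gata6, Nkx2-5, Tbx5, Srf and Myocd include predicted transcripts, whereas those of Tbx20, Hand1, Hand2 and Hopx rest on curated ones.

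**Figure D1:**
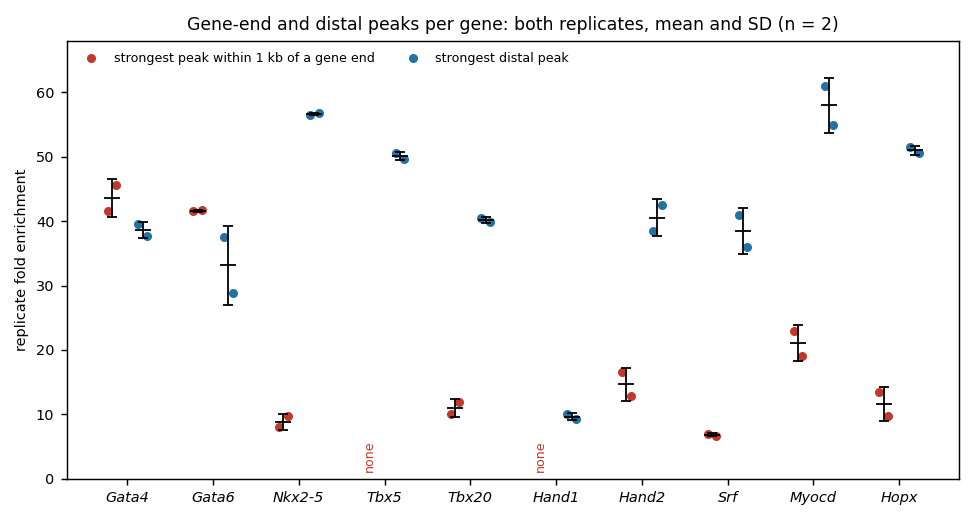
Fold enrichment in each replicate (points), with mean and SD (n = 2, black), of the strongest gene-end peak (red) and of the strongest distal series-wide peak (blue) of each gene. Gata4 and Gata6 stand above 41 at a gene end, the other genes below 24; the Srf gene-end value comes from the replicate lists and lies within 1 kb of an end of Cul9 too.

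In the replicate lists, 8 of the 10 genes had a gene-end peak in both samples, against 45.2% of all genes. The additional gene was Srf, with 7.0 fold in replicate 1 and 6.65 in replicate 2 (6.82 ± 0.248, SD, n = 2). These Srf peaks also lie within 1 kb of an end of its neighbour Cul9, so they cannot be assigned to Srf alone. Tbx5 and Hand1 had no gene-end peak in any of the 3 lists. Weak gene-end peaks seen in 1 sample alone lay at Nkx2-5 in replicate 1 (5.50 fold) and, in replicate 2, at Tbx20 (5.32), Hopx (5.32) and the upper end of Hand2 (6.21 for each of 2 peaks). All of these were weaker than any series-wide peak of the 10 genes, the lowest of which had 7.54 fold.

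Distal peaks were found at all 10 genes in the series-wide list, against 76.3% of all protein-coding genes. In all there were 83, with 40 inside a gene model and 43 outside. More distal peaks than at the median gene, which had 2, were found at 8 of the 10 genes, against 47.8% of all genes. The numbers ran from 15 at Gata4 and at Myocd, 13 at Nkx2-5 and 8 at Tbx20 and at Hand2 down to 7 at Gata6, Tbx5 and Hopx, 2 at Srf and 1 at Hand1. The median of 7.5 compared with a 90th percentile of 8 over all genes. Other heart genes had many distal peaks too: a list of 16 of their target genes, described at the end, had a median of 9 and a list of 28 partner genes a median of 5. The target list holds neighbours that share peaks. The highest distal fold at Nppa was the gene-end fold of Nppb (53.6), and that at Myh7 the gene-end fold of Myh6 (59.5). The 10 gene models had a median length of 30.6 kb against 17.1 kb over all genes, although those of Nkx2-5, Hand1, Hand2 and Srf were shorter than 17.1 kb. Counted per 100 kb of the window searched, the median was 5.36 peaks, against 1.74 over all genes.

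**Figure D2:**
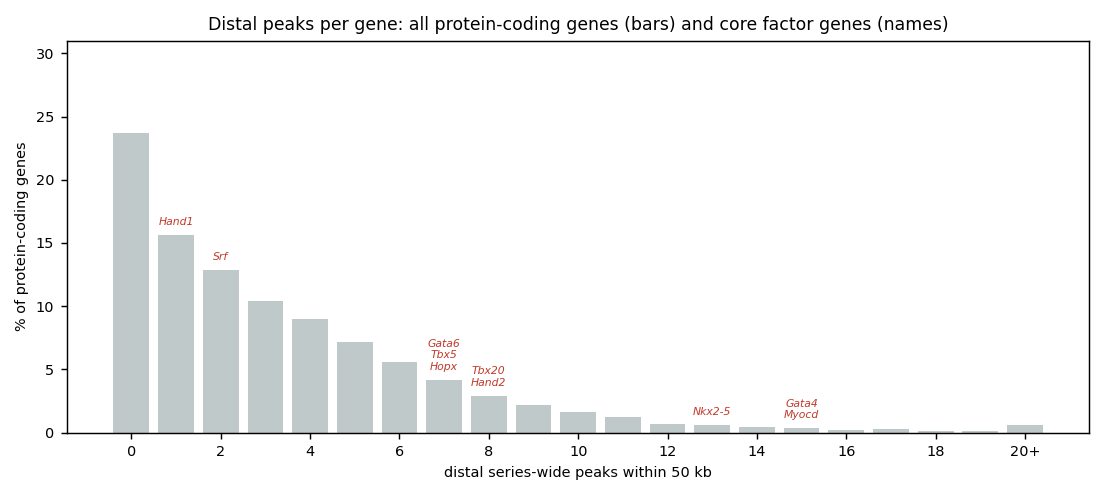
Percentage of all 21900 protein-coding genes (bars) by the number of distal series-wide peaks within 50 kb, with the 10 genes named above the bar of their own count. Hand1 and Srf stand at 1 and 2, and the other 8 between 7 and 15.

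None of the 83 distal peaks overlapped the 1 kb window at an end of another protein-coding gene, whereas 25.2% of the distal peaks counted over all genes did. The neighbourhoods were sparse: the median gene of the 10 had an end of 1 other protein-coding gene within 50 kb, against 3 over all genes. Among the 14343 genes with at most 3 such neighbours, the most that any of the 10 had, the median was 2 distal peaks and 1.2 per 100 kb. Ends of noncoding genes lay within 1 kb of the summit of 12 of the 90 peaks, 4 of them gene-end peaks. The share over all series-wide peaks was not counted, so whether this number is unusual is not known.

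The highest series-wide distal fold had a median of 41.8 over the 10 genes, against 21 over all 16702 genes with a distal peak. It is a maximum per gene, which tends to rise with the number of peaks, and most of the 10 genes had more peaks than the median gene. Taken singly, the distal peaks had a median of 18.3 fold inside a model and 13.7 outside, against 13.7 over all series-wide peaks. A distal peak was higher than the gene-end peak at 5 of the 7 genes that had both, close to the 77.9% of all such genes; the exceptions were Gata4 and Gata6. Of the 90 peaks, 32 belonged to the 20% of series-wide peaks with the highest fold, a cut that 20.2% of all peaks met because of ties. Broad peaks of 1500 bp or more numbered 7 of 90, against 1.77% of all series-wide peaks.

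**Figure D3:**
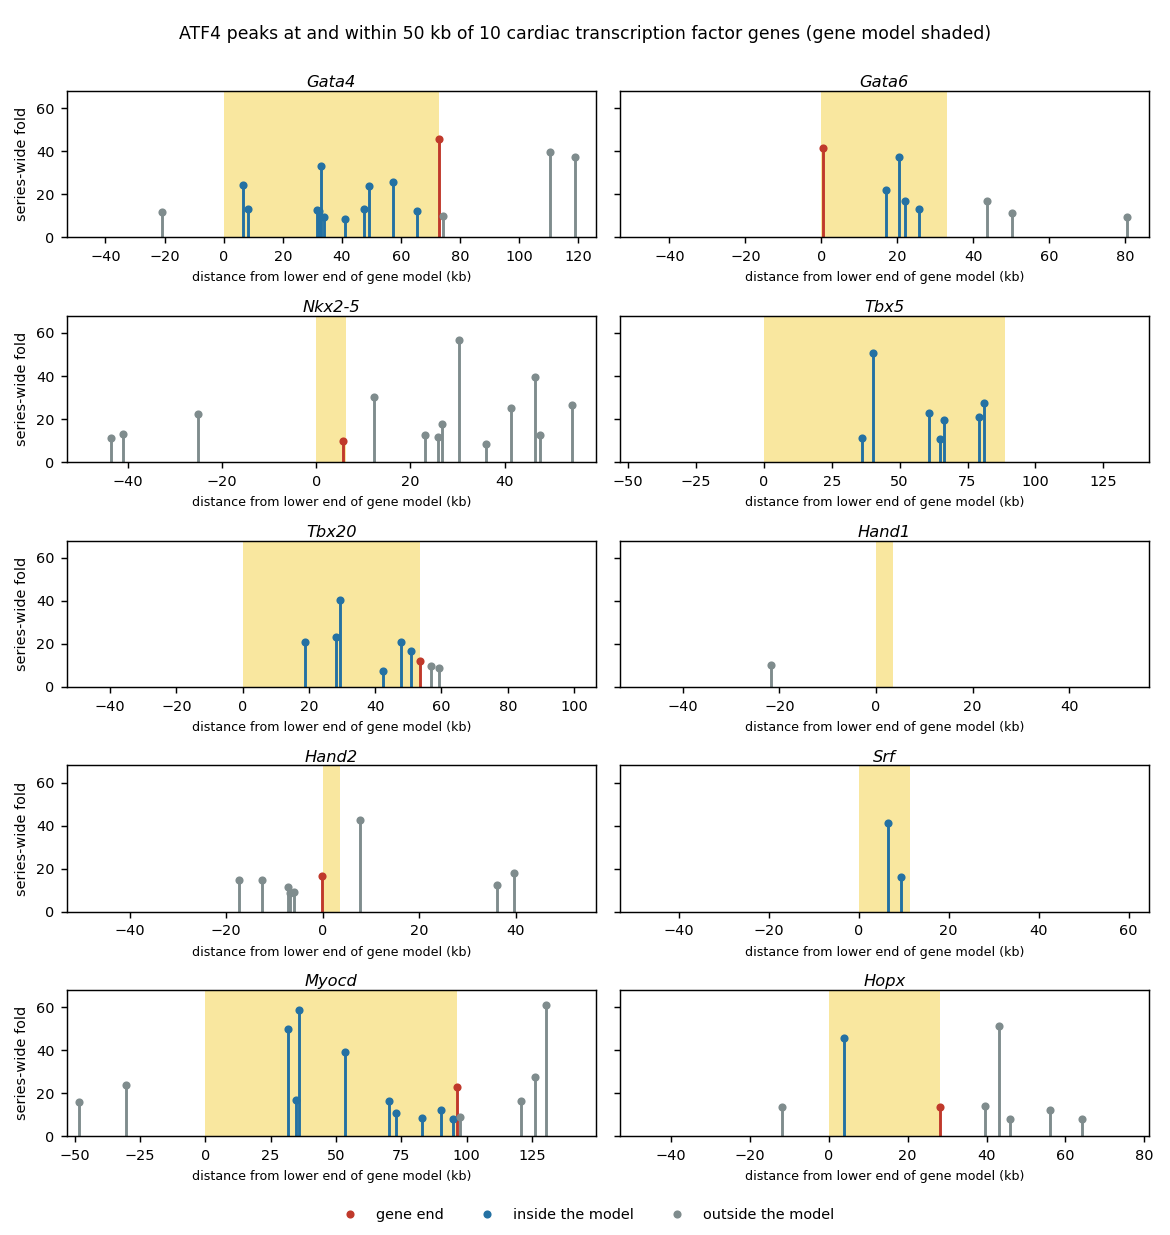
Series-wide peaks at each gene: the x axis is the distance of the summit from the lower-coordinate end of the gene model (kb), the height is the series-wide fold, the shaded box is the gene model and each panel shows about 50 kb to either side. Myocd and Gata4 carry 15 distal peaks each, Nkx2-5 carries 13 outside its short model, and Hand1 carries a single peak of 10 fold.

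Among the GATA genes, Gata4 had 11 of its 15 distal peaks inside the model, and the densest stretch of 10 kb held 5 peaks, the most for any of the 10 genes. The strongest of that stretch (chromosome 14, 63231707 to 63232149) had 23.0 fold in replicate 1 and 33.2 in replicate 2 (28.1 ± 7.24, SD, n = 2), the widest spread between the samples among the 90 peaks. The distal peak of highest series-wide fold lay 37.5 kb above the upper end (63308883 to 63309525), with 39.5 and 37.7 fold (38.6 ± 1.29, SD, n = 2), within 1 kb of an end of the noncoding gene Gm4151. A further one at 46.0 kb had 28.5 and 37.2 fold. A peak 2359 bp wide inside the model (63244222 to 63246580) had 10 and 13.3 fold, with summits 927 bp apart. Gata6 had 4 distal peaks inside the model and 3 beyond its upper end, and none below it. Its strongest (chromosome 18, 11072726 to 11073156), 12.7 kb inside the model from the upper end, had 37.5 and 28.8 fold (33.2 ± 6.14, SD, n = 2).

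Nkx2-5, one of the first factors switched on in the heart field, had all of its 13 distal peaks outside its short model of 6325 bp, 10 on the upstream side and 3 on the downstream side. The strongest (chromosome 17, 26868644 to 26869293) had 56.5 and 56.7 fold (56.6 ± 0.166, SD, n = 2) and its summit lay 27.4 kb upstream of the start in the promoter table. The next (26884669 to 26885448), 43.5 kb upstream, had 39.5 and 39.4 fold (39.5 ± 0.0365, SD, n = 2). Another at 9355 bp upstream (26850250 to 26851175) had 22.0 and 30.1 fold (26.1 ± 5.76, SD, n = 2). All 3 were stronger in both samples than the gene-end peak of 8.88 fold. The upstream region of Nkx2-5 is known to hold several heart enhancers; whether these peaks overlie them was not tested.

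The T-box genes carried most of their peaks inside the gene model. Tbx5, which patterns the atria and left ventricle and is needed for the conduction system, had 7 distal peaks, all inside its model of 88707 bp, and none elsewhere within 50 kb. Its strongest (chromosome 5, 119836126 to 119837152) had 50.5 and 49.6 fold (50.1 ± 0.606, SD, n = 2), 40.1 kb from the lower end. The Tbx5 model was built from 1 curated and 6 predicted transcripts, and the promoter table held no start for it. How far this peak lies from a transcription start of Tbx5 is therefore not known. The second had 19.0 and 27.5 fold, so the replicate values of the strongest stood apart from those of all other Tbx5 peaks. Tbx20 had 6 of 8 distal peaks inside the model. Its strongest (chromosome 9, 24749960 to 24750730) had 40.5 and 39.9 fold (40.2 ± 0.430, SD, n = 2), 24.0 kb downstream of the start, against 11.0 fold at the start.

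The HAND genes, whose models are similar in length (3435 bp for Hand1 and 3535 bp for Hand2), differed in their peaks. Hand1 had 1 series-wide peak within 50 kb, 21.7 kb below the model (chromosome 11, 57806897 to 57807090), with 10 fold in replicate 1 and 9.31 in replicate 2 (9.65 ± 0.489, SD, n = 2). The replicate lists added 1 Hand1 peak of 6.0 fold in replicate 1 and 0 in replicate 2. Hand2 had 8 distal peaks, 5 on the upstream side and 3 beyond its end, and 18 and 21 in the replicate lists. The strongest (chromosome 8, 57327795 to 57329376) lay 4.16 kb beyond the end of the gene, was 1582 bp wide and had 38.5 and 42.6 fold (40.5 ± 2.86, SD, n = 2). The values at Hand2 were thus above those at Hand1 in both samples, for the strongest peak as for the count.

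Srf, whose product binds the CArG box, had the fewest peaks after Hand1, with 2, both inside its model. The stronger (chromosome 17, 46552710 to 46553794) had 41.0 and 35.9 fold (38.5 ± 3.60, SD, n = 2), and its summit lay 2772 bp downstream of the start, within 1 kb of an end of the microRNA gene Mir6976. Myocd, the partner of serum response factor in heart and smooth muscle, had the strongest peak of the 10 genes. It lay 34.0 kb beyond the upper end of the model (chromosome 11, 65303586 to 65304343) and had 61.0 and 55.0 fold (58.0 ± 4.27, SD, n = 2). A peak inside Myocd (65209048 to 65210939), 1892 bp wide, reached 54.5 and 59.0 fold (56.7 ± 3.15, SD, n = 2), so the order of these 2 peaks differed between the samples. A further 2 inside the model had 50 and 41.7 fold and 38.0 and 39.4 fold. Hopx had 1 distal peak inside its model, with 41.5 and 45.7 fold (43.6 ± 2.94, SD, n = 2; chromosome 5, 77090453 to 77091192), and 6 outside. The strongest of those (77129624 to 77131346) lay 15.0 kb upstream of the upper start and had 51.5 and 50.5 fold (51.0 ± 0.686, SD, n = 2).

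All 90 series-wide peaks overlapped a peak in both replicate lists. This is in part built in, since the series-wide list is named as a set of peaks that recur between replicates. The ratio of the fold in replicate 1 to that in replicate 2 had a median of 1.01 and ran from 0.576 to 1.66; the median over all 40643 series-wide peaks in both lists was 0.972. The SD between the samples ran from 0.0153 to 7.24 fold with a median of 1.95, and the strongest summits of the samples lay a median of 18.5 bp apart. Of the peaks in the replicate lists at the 10 genes, 149 of 178 in replicate 1 overlapped one of replicate 2 (83.7%, exact 95% interval 77.4% to 88.8%), and 150 of 206 in replicate 2 overlapped one of replicate 1 (72.8%, 66.2% to 78.8%). Over all peaks the shares were 81.2% and 72.1%, so the 10 genes did not stand apart. The unshared peaks were weak, with a median of 6.0 fold in replicate 1 and 5.98 in replicate 2; the strongest of them had 9.0 and 12.4 fold.

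**Figure D4:**
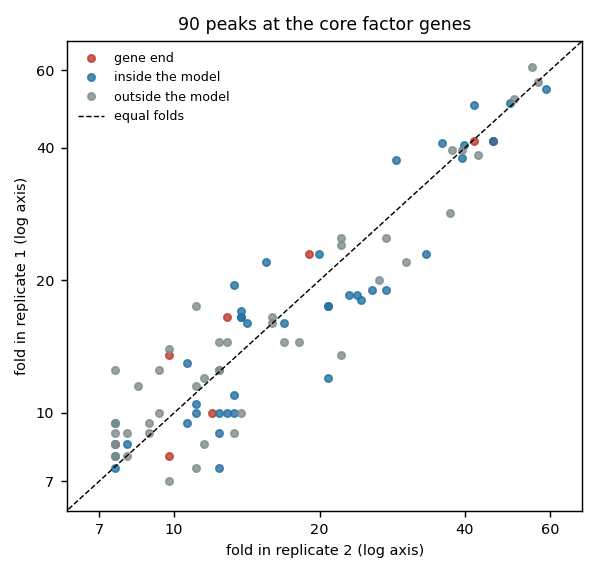
Fold in replicate 2 (x axis, log) against replicate 1 (y axis, log) for the 90 series-wide peaks of the 10 genes, coloured by place; the dashed line marks equal folds. The points follow the line from about 7 to above 50, with ratios between 0.576 and 1.66.

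Genes that work with the core factors were read from 2 lists, which were also drawn up with earlier results known. Of 28 partner genes, which encode cofactors, related factors and other heart regulators, 15 had a gene-end peak (53.6%), with a median of 14.0 fold, against the 34.9% of all genes given above. With 300 bp around a gene end 10 of the 28 had one, against 30.3% of all genes, and with 5 kb 17 had one, against 47.4%. The excess of the partner genes thus depends on the window. The strongest were at Zfpm2, a cofactor of GATA4, with 55.9 ± 4.42 fold (SD, n = 2), Mef2a with 55.1 ± 2.95, Heyl with 49.5 ± 2.77 and Mef2d with 26.6 ± 0.600. Gata5 and Hey1 were among those without a series-wide gene-end peak, and Isl1, which marks cardiac progenitors, and Tbx18 had no series-wide peak at a gene end or within 50 kb. In the replicate lists, Tbx18 had gene-end peaks of 6.0 and 10.6 fold and Hey1 of 7.5 and 6.21 fold. Gata5 and Isl1 had none there. A gene-end peak in both replicate lists lay at 21 of the 28 partner genes, against 45.2% of all genes. Of 16 textbook target genes of the core factors, 13 had a gene-end peak (81.3%), with a median of 24.4 fold. The strongest were at Tnnt2 with 61.1 ± 1.22 fold, Actc1 with 55.6 ± 8.38, Tnni3 with 54.2 ± 3.28 and Myh6 with 52.6 ± 9.79 (SD, n = 2 each), all of the contractile apparatus. Acta1 and Gja5 had none. Distal peaks lay within 50 kb of 16 of the 16 target genes and 25 of the 28 partner genes, against 76.3% of all protein-coding genes. The core factor genes themselves, had a median of 16.5 fold, with 2 genes above 25; the lists were not tested against each other.

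**Figure D5:**
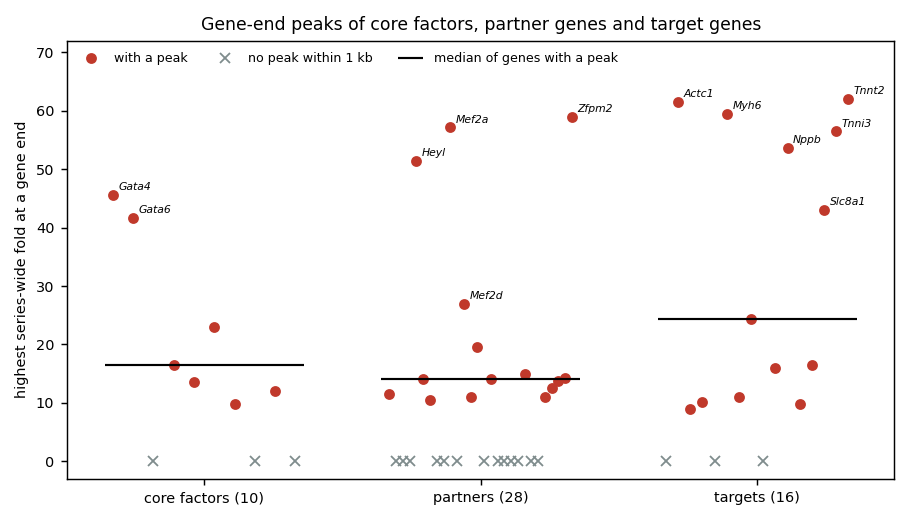
Highest series-wide fold at a gene end for each gene of the core factors, the partner list and the target list (points), with the median of the genes that had such a peak (black lines) and genes without one drawn as crosses at 0. The medians are 16.5, 14.0 and 24.4, and genes above 25 are named.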

How the data were processed

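Per the labels' protocols, minced ventricle was fixed in formaldehyde, its chromatin was sonicated, precleared and captured on streptavidin beads. Per the submitters' processing notes, Bowtie2, MACS2, deepTools and the build mm10 were used, with no role or version given. The 3 peak lists deposited by the authors were analysed; no column of values lacked a sample or list. The series-wide list holds the authors' deposited fold enrichment per peak. The replicate lists hold a deposited −log10 p-value or q-value, which of the 2 is not stated. In each replicate these values rose in steps, and peaks of identical coordinates in the series-wide list (17420 and 21063) tied each step to the fold most often seen with it; among folds on a replicate's own step, 0 values had more than 1 fold. The 4 and 5 lowest values continued the steps, and 2 and 9 high ones were interpolated. The steps match constant backgrounds of 1.00 and 1.26 per sample. A replicate's fold at a series-wide peak is that of its strongest overlapping peak. Folds were not scaled between samples. Depth per sample is unknown. No counting error of a fold was computed, although the steps would allow an approximate one. A small SD between the 2 samples thus does not show that a fold is precise. Intervals of shares (Clopper-Pearson, 95%) cover counting error only.

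Gene models and promoter sequences came from RefSeq (GRCm38.p6, the assembly of mm10). The gene table gives spans without strand, so either end of a model counts as a gene end. An overlap of at least 1 bp counted. Distances use the summit of the stronger replicate peak. The genes and lists were chosen with earlier results of these data known. All 10 genes were named; of each other list, the 4 genes of highest fold at a gene end were named, and of those lacking a peak there the 2 that come first by alphabet. Isl1, Tbx18, Nppa, Nppb, Myh7, Mir6976, Cul9 and the noncoding genes were named after their values were seen, as were the marker genes with a peak. Counting was tested on simulated peaks. Alternatives are given in the closing section. Tables were read with pandas 2.3.3 and NumPy 2.4.6 under Python 3.11.15, intervals came from SciPy 1.17.1 and figures from Matplotlib 3.10.9.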

Additional observations from a re-analysis of the deposited data

How the results depend on the processing

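Of 45 recomputed values, 34 stayed within 1.5 times the count, 1 SD or the exact interval of the value reported, and 11 did not. This tally is a weak guide. Counts out of the 10 core genes or the 16 target genes were too near their totals to rise 1.5 times. The SD of 1.83 fold is that between the median gene-end folds of the 2 replicates, which are themselves among the values judged. Where only the top 20% of peaks by fold were kept, gene-end peaks remained at 3 of the 10 genes, 4 of 28 partner genes and 7 of 16 target genes (5.66% of all genes), 29 distal peaks were counted (all genes, 6.68 per 10 genes), and the median gene-end fold was 41.7 (all genes, 28), since weaker peaks were left out. Within 10 kb, 49 distal peaks were counted in place of 83 (all genes, 13.6 in place of 33.7 per 10 genes). With 5 kb around a gene end the median gene-end fold was 41.3 (all genes, 14.5), as peaks counted as distal entered. Leaving out 1 replicate (reading the longer list of the other alone) gave 168 to 194 distal peaks (all genes, 62.3 to 70.3 per 10 genes) and a median gene-end fold of 12.4 to 15.0 (all genes, 10 to 10.2). The core factor genes were above all genes in each of these. With at least 50% of both peaks required, 66.9% of the replicate 1 peaks were shared. No paired analysis was possible because the input samples gave no values here and the pull-down samples form a single group. Depth is unknown, so an absent peak, as at the ends of Tbx5 and Hand1, is one not called at this depth. The Tbx5 model includes predicted transcripts, so whether its ends hold the transcription start was not tested.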
